A study of Mus musculus with 4 samples.

Results

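Tigit, Klrg1, Pdcd1, Havcr2, Lilr4b and Lilrb4a are 6 genes for surface receptors that damp the activation of lymphocytes or belong to a family that does. They were taken by symbol from a deposited table of 282 genes, and 6 of 6 were found there. All 6 were lower in YFP-positive than in YFP-negative regulatory T cells (Tregs) under both mouse numbers. The 282 genes had been selected for this same contrast, and 69.5% of them were lower in YFP-positive Tregs. Mean normalized counts of the 6 in YFP-positive Tregs were between 13.7% (Havcr2) and 39.5% (Lilrb4a) of those in YFP-negative Tregs. Tregs are CD4 T cells that express the transcription factor Foxp3 and restrain immune responses.

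RNA was sequenced from 4 libraries of Tregs. The cells had been sorted out of spleen and lymph node tissue, and the male donors were aged 6 to 8 weeks. Every library came from mice with the same 3 alleles, namely Foxp3RFP-Cre, RosaYFP and Mll1fl/fl. The Foxp3 locus drives red fluorescent protein (RFP) and Cre, YFP at Rosa reports that Cre has acted, and Mll1 (mouse symbol Kmt2a), a histone H3 lysine methyltransferase gene, is floxed. The knockout libraries were RFP+YFP+ Tregs labelled MLL1KO, 1 from mouse 1 and 1 from mouse 2. The libraries they are set against were RFP+YFP- Tregs labelled WT, with the same 2 mouse numbers, and these cells carry the floxed alleles and the Cre allele as well. Whether a number is 1 animal or a pool is not in the labels, so p-values measure the spread between these libraries only. Kmt2a and Foxp3 are not among the listed genes, so neither the deletion nor the Treg identity is checked by the values below. The comparison asks how the 6 receptor genes differ between RFP+YFP+ Tregs labelled MLL1KO and RFP+YFP- Tregs labelled WT. These populations also differ in whether Cre has acted, and its effect apart from MLL1 loss was not tested.

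The table holds genes that the authors had already selected for this contrast, by adjusted p (under 0.05) and by log2 fold change (beyond 1 in either direction). The authors' p-values imply 14239 tested genes, of which the 282 listed genes are 1.98% and the 196 lower ones 1.38%. Every listed gene passed the test used here, which was limma with Benjamini-Hochberg adjustment (282 of 282, 100%), and 69.5% of the listed genes were lower in YFP-positive Tregs. With p adjusted over 14239 tests, 59.9% of the listed genes were lower and passed, the 6 receptor genes among them. Only the adjustment changed there, since the p-values still came from the fit on the selected genes. It does not stand for a test of all 14239. The groups overlapped in 0 of the 282. The calls below are therefore descriptions of selected genes, and the direction of the 6 is not independent evidence. Limma pooled variance over these 282 selected genes, which gave 51.54 degrees of freedom per gene from 4 libraries. Its SEs and p-values below rest largely on that pooled variance, and less on the spread of each gene. Values are normalized read counts, scaled by the authors with 1 size factor for each library. In bulk RNA, fewer cells with a transcript and less transcript per cell cannot be told apart. Reads inferred from the step between values summed to between 196337 and 329350 per library over the listed genes, which is not the libraries' depth.

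Inhibitory receptors bind ligands on neighbouring cells and pass the signal on through tyrosines in their cytoplasmic tails. In many of them the tyrosine lies in an immunoreceptor tyrosine-based inhibitory motif (ITIM), which once phosphorylated binds phosphatases that blunt receptor signalling. In Tregs these receptors mark activated, effector-type cells, and TIGIT also takes part in suppression.

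The coding sequences of the 6 genes show how the receptors differ in this motif, and the ITIM codons found in the principal GENCODE M21 transcripts (mm10) are printed below, with the tyrosine codon in capitals. The search read the coding frame for an isoleucine, leucine, valine or serine codon, any codon, tyrosine, any pair of codons, and isoleucine, leucine or valine. For Pdcd1 the related switch motif (ITSM), which has threonine in the leading place, is also given.
Tigit ITIM: ctgagcTACagaagccta
Klrg1 ITIM: tctatcTATtcaacacta
Pdcd1 ITIM: gtggccTATgaggagctg
Pdcd1 ITSM: acagaaTATgccaccatt
Lilrb4a upstream ITIM: attgtcTACgcccaggta
Lilrb4a downstream ITIM: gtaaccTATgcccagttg

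The tyrosine codon was codon 228 of 241 in Tigit (chr16:43649034-43649051, minus strand) and codon 7 of 188 in Klrg1 (chr6:122282782-122282799, minus strand), a lectin-type receptor whose tail is at its amino-terminal end. In Pdcd1 (chromosome 1, minus strand) the ITIM tyrosine was codon 225 and the ITSM tyrosine codon 248 of 288. Lilrb4a (chromosome 10, plus strand) had tail matches with tyrosine codons 300 and 322 of 335. Further matches stood at tyrosine codon 56 of Klrg1 and at tyrosine codon 10, near the start, of both Lilr4b and Lilrb4a, and an ITSM match at codon 92 of Lilrb4a. Havcr2 had 0 matches among its 12 tyrosine codons, and TIM-3, its product, is known to signal through other tail tyrosines. A match is a description and not a functional site, since 48.4% of 21881 protein-coding genes hold at least 1 ITIM match. Within the last 60 codons 10.8% of these genes do, a window that holds the Tigit ITIM and the tail matches of Lilrb4a. The ITIM matches of Pdcd1 and Klrg1, and those at codon 10, lie outside it.

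Lilr4b has no ITIM match in its tail, and the end of its coding sequence shows how it departs from its neighbour Lilrb4a. The last 66 bases of the Lilr4b coding sequence and the aligned stretch of Lilrb4a are given below in spliced form, with differing bases in capitals.
Lilr4b: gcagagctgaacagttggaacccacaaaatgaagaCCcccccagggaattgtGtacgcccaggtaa
Lilrb4a: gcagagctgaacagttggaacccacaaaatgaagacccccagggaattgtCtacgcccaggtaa
The 2 coding sequences were 95.8% identical over 912 aligned positions, with 1 gap of 2 bases after coding base 881. The reading frames differ beyond that gap. The bases of the upstream Lilrb4a ITIM are thus nearly all present in Lilr4b but out of frame, and the Lilr4b frame ends after 303 codons against 335 in Lilrb4a. The label "inhibitory receptor" therefore holds for Lilr4b by family and not by this motif.

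Tigit (ENSMUSG00000071552, chr16:43648867-43664146, minus strand) encodes a receptor of the nectin-binding family that recognizes CD155 on antigen-presenting cells. Its normalized count was 1045 and 1230 in YFP-positive mice 1 and 2, and 6817 and 4580 in YFP-negative mice 1 and 2. The groups did not overlap, as in all 282 listed genes, and YFP-negative mouse 1 was the highest library. YFP-positive libraries averaged 1138 ± 131 and YFP-negative libraries 5698 ± 1581 (SD, n = 2 each), so the larger spread lay in the YFP-negative group. Tigit fell by 2.30 ± 0.36 on the log2(count + 1) scale (limma estimate ± SE, adjusted p = 7.76e-07).

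Klrg1 (ENSMUSG00000030114, chr6:122270596-122282882, minus strand) encodes a receptor for cadherins that is known as a marker of terminally differentiated effector Tregs. Counts were 497 and 748 in YFP-positive mice 1 and 2, against 3703 and 2846 in YFP-negative mice 1 and 2. The 2 populations stood apart in both mice, as in all 282 listed genes. The gap was widest in mouse 1, which had both the lowest and the highest count. The log2 ratio was -2.89 in mouse 1 and -1.93 in mouse 2. Klrg1 fell by 2.41 ± 0.34 on the log2 scale (limma, adjusted p = 2.08e-07) and to 19.0% of its YFP-negative mean.

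Pdcd1 (ENSMUSG00000026285, chr1:94038305-94052553, minus strand) encodes PD-1, the receptor of the PD-L1 and PD-L2 ligands. Counts were 1532 and 1756 in YFP-positive mice 1 and 2, and 5339 and 4351 in YFP-negative mice 1 and 2. The YFP-positive libraries lay close together and far below both YFP-negative libraries. Pdcd1 fell by 1.55 ± 0.36 (limma log2 estimate ± SE, adjusted p = 0.000148), a mean in YFP-positive Tregs of 33.9% of that in YFP-negative Tregs.

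Havcr2 (ENSMUSG00000020399, chr11:46454935-46481255, plus strand), which encodes TIM-3, a receptor of exhausted and effector T cells, had the largest fall of the 6 and by far the fewest reads. Its normalized count was 19.8 and 19.1 in YFP-positive mice 1 and 2, and 162 and 122 in YFP-negative mice 1 and 2. These values correspond to 19 and 18 inferred reads against 165 and 136, so the YFP-positive level carries a large counting error. Havcr2 fell by 2.79 ± 0.53 on the log2 scale (limma, adjusted p = 1.39e-05). The pseudocount of 1 understates a change at such low counts, and the SE was the widest of the 6. Among the 196 lower genes of the table, its fall was the 24th largest, against the 47th for Klrg1 and the 57th for Tigit.

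Lilr4b (ENSMUSG00000112023) and Lilrb4a (ENSMUSG00000112148) lie side by side on the plus strand of chromosome 10 (51480632 to 51486703 and 51490956 to 51496611, mm10), 4252 bases apart. Both belong to the leukocyte immunoglobulin-like receptor family, known in mice from mast cells and myeloid cells. Lilr4b was counted at 616 and 543 in YFP-positive mice 1 and 2, against 1987 and 1496 in YFP-negative mice 1 and 2. Lilrb4a was counted at 220 and 278 in YFP-positive mice 1 and 2, against 612 and 650 in YFP-negative mice 1 and 2. The groups did not overlap in either gene, as in all 282 listed genes. Mouse 1 was the higher in both populations for Lilr4b and the lower in both for Lilrb4a. Lilr4b fell by 1.58 ± 0.33 and Lilrb4a fell by 1.35 ± 0.35 on the log2 scale (limma adjusted p = 5.13e-05 and 0.000450). These were the 136th and 160th of the 196 falls, the Pdcd1 fall being the 139th.

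**Figure D1:**
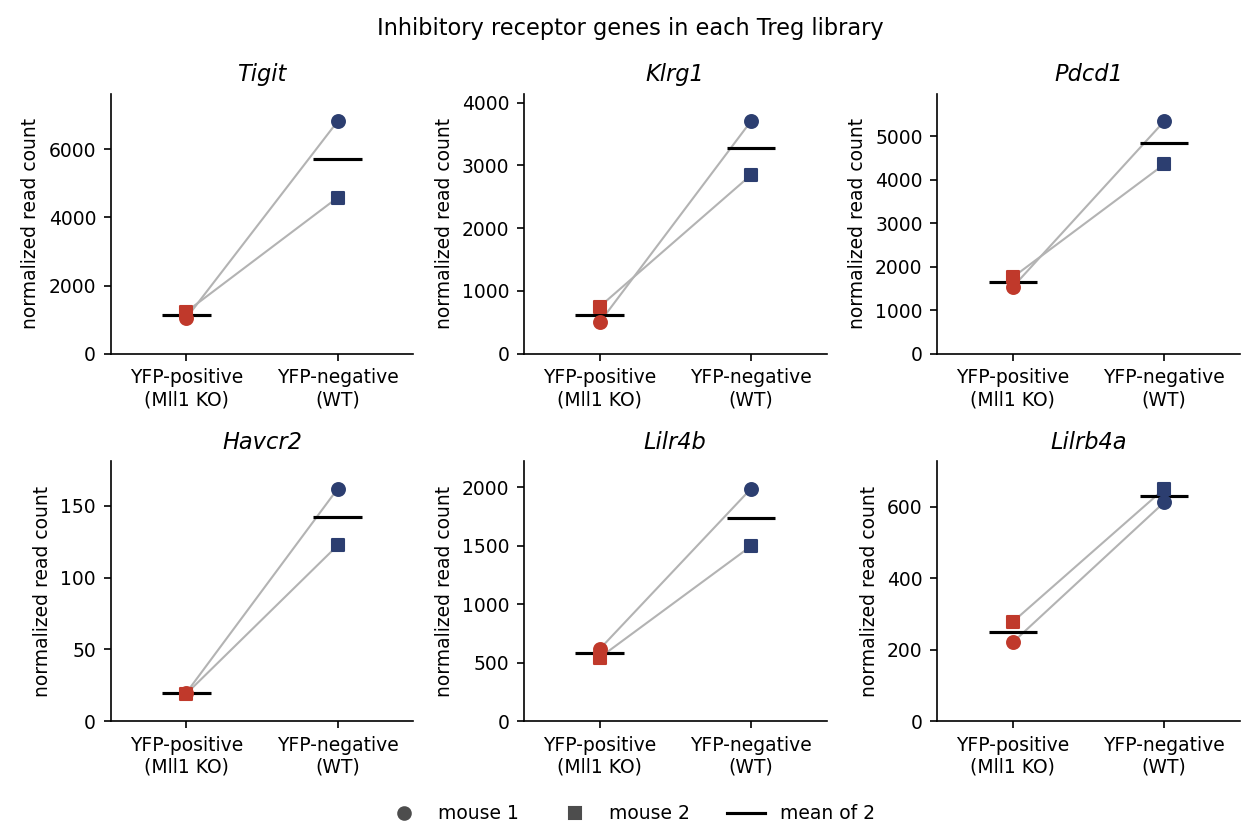
Normalized read count (linear axis from 0, own scale in each panel) of the 6 genes in every library, with YFP-positive Tregs left of YFP-negative Tregs, circles for mouse 1, squares for mouse 2, grey lines joining libraries of a mouse number and black bars for the mean of 2. In every panel both YFP-positive libraries lie below both YFP-negative libraries, and the groups do not overlap in any of the 282 listed genes. Counts were lowest for Havcr2, at 19.1 and 19.8 against 122 and 162. Tigit had 1045 and 1230 against 4580 and 6817, and Pdcd1 had 1532 and 1756 against 4351 and 5339.

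The number of Lilr4b counts per Lilrb4a count differed more between mice than between populations. It was 2.79 and 1.95 in YFP-positive mice 1 and 2, and 3.25 and 2.30 in YFP-negative mice 1 and 2. The ratio was higher in mouse 1 than in mouse 2 in both populations, and within each mouse it was lower in YFP-positive Tregs. With 2 libraries a group this difference was not tested. Reads of the pair can be misassigned, since 22.9% of the 50-base stretches of the principal Lilr4b transcript and 27.8% of those of Lilrb4a occur in transcripts of the other gene. At 100 bases the shares were 10.5% and 14.3%. In GENCODE M21, Gm49339, a gene model outside the list, covers 35.3% of the exon bases of Lilrb4a and 2.2% of those of Lilr4b on the same strand. All stretches of the principal Lilrb4a transcript (100% at 50 and at 100 bases) occur in transcripts of another gene. The part of shared reads in the counts of this pair was not tested. For Tigit, Klrg1, Pdcd1 and Havcr2 the share found in other genes was 4.4%, 0.0%, 0.0% and 0.7% at 50 bases, and 0.0% for each at 100 bases.

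A listed pseudogene next to Klrg1 moved with it. Gm6637 (ENSMUSG00000108090, plus strand, 122295664 to 122296045) is a processed pseudogene that lies 12781 bases upstream of Klrg1 on chromosome 6. Its count was 441 and 738 in YFP-positive mice 1 and 2, and 3363 and 2620 in YFP-negative mice 1 and 2. The counts per Klrg1 count were 0.887 and 0.987 in YFP-positive mice 1 and 2, and 0.908 and 0.921 in YFP-negative mice 1 and 2. The ratio of the pair thus varied little beside the fall of each gene. Gm6637 fell by 2.38 ± 0.34 on the log2 scale (limma, adjusted p = 2.38e-07). Of the 50-base stretches of Gm6637, 23.1% occur in transcripts of other genes, and 0.0% do at 100 bases. Of the 50-base stretches of Klrg1, 0.0% occur in another gene, so Gm6637 shares its stretches with genes other than Klrg1. The part of overlapping transcription or shared reads in this likeness was not tested.

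**Figure D2:**
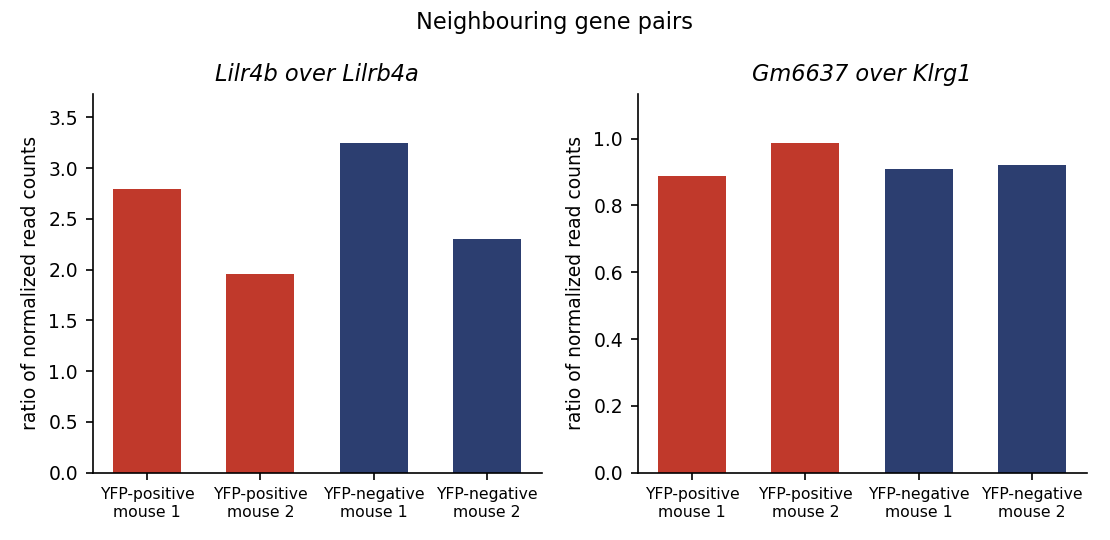
Ratio of normalized read counts in each library (linear axis from 0) for Lilr4b over Lilrb4a and for Gm6637 over Klrg1, with YFP-positive bars (red) left of YFP-negative bars (blue). The first ratio runs from 1.95 to 3.25 and is higher in mouse 1 in both populations, and the second stays between 0.887 and 0.987.

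Per kilobase of deposited gene length, the order of the 6 genes was the same in both populations. In YFP-positive Tregs the levels in mice 1 and 2, as normalized counts per kilobase, were 1137 and 1338 for Tigit, 794 and 910 for Pdcd1 and 352 and 529 for Klrg1. They were 113 and 99.8 for Lilr4b, 42.2 and 53.2 for Lilrb4a and 7.26 and 7.01 for Havcr2. No neighbours in this order overlapped. In YFP-negative Tregs they were 7417 and 4984 for Tigit, 2766 and 2254 for Pdcd1 and 2619 and 2013 for Klrg1, and the values of Pdcd1 and Klrg1 overlapped. Lilr4b had 365 and 275, Lilrb4a 117 and 124, and Havcr2 59.5 and 45.0 counts per kilobase there. The deposited lengths of Lilr4b (5439 bases) and Lilrb4a (5227 bases) equal the union of all annotated exons, retained introns included, and their principal transcripts are 1836 and 1381 bases long. With the principal transcript, a choice made after seeing the data, their mean levels per kilobase were higher in both populations. The order of the 6 did not change. As given above, all stretches of the principal Lilrb4a transcript occur in transcripts of another gene. The level and place of Lilrb4a thus depend on how shared reads were counted, which is not given.

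All 6 genes fell more in mouse 1 than in mouse 2. On the log2(count + 1) scale the ratios of YFP-positive over YFP-negative in mice 1 and 2 were -2.70 and -1.90 for Tigit, -1.80 and -1.31 for Pdcd1 and -2.97 and -2.62 for Havcr2. They were -1.69 and -1.46 for Lilr4b and -1.47 and -1.22 for Lilrb4a. The log2 ratio in mouse 1 minus that in mouse 2 was -0.97 for Klrg1 and -0.81 for Tigit, the widest gaps, and -0.23 for Lilr4b and -0.25 for Lilrb4a, the narrowest. A larger change in mouse 1 was also seen in 82.1% of the 196 lower genes and in 54.7% of the 86 higher genes. The median log2 ratio of the lower genes was -2.19 in mouse 1 and -1.60 in mouse 2, and that of the 6 was -2.25 and -1.68. The YFP-negative library of mouse 1 held the most inferred reads over the listed genes, a sum that is not its depth. Its inferred size factor was 1.02, against 1.111 for YFP-negative mouse 2. The part of either in the larger falls was not tested.

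**Figure D3:**
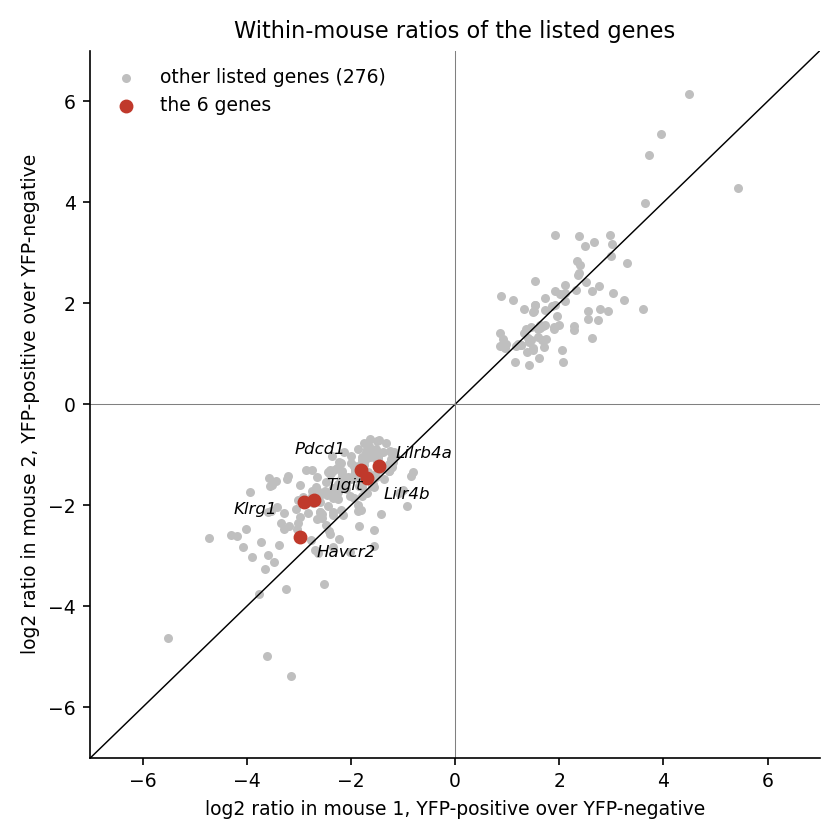
Log2 ratio of YFP-positive over YFP-negative in mouse 1 (x axis) and mouse 2 (y axis), on normalized count + 1, for the 282 listed genes, with the 6 receptor genes in red and the diagonal marking equal ratios. The 6 lie in the lower left and above the diagonal, from -1.47 and -1.22 (Lilrb4a) to -2.97 and -2.62 (Havcr2), among the other lower genes.

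Over the 4 libraries the 6 profiles formed a graded set. The measure was the root mean square distance between log2 profiles, each centred on its own mean. Among all pairs, Pdcd1 and Lilr4b (0.14), Tigit and Klrg1 (0.15) and Pdcd1 and Lilrb4a (0.18) were closest, and Havcr2 and Lilrb4a were farthest apart (0.76). Tigit, Klrg1 and Havcr2 had the larger falls and Pdcd1, Lilr4b and Lilrb4a the smaller ones. The 95% intervals of Klrg1 (-3.10 to -1.72) and Pdcd1 (-2.28 to -0.83) overlap, and a difference in fall between members was not tested.

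For each gene the 3 nearest listed genes by this distance are given as likeness over 4 libraries, within a list in which every gene was chosen for the same contrast. Tigit was nearest to Ttc39c (0.03), Igkc (0.04) and the lipoxygenase gene Alox8 (0.06). Klrg1 was nearest to Gm6637 (0.06), to Racgap1, a gene of cytokinesis (0.06), and to Tktl1, a transketolase-like gene (0.09). No member of the 6 was among the 3 nearest genes of another member. Pdcd1 was nearest to St14, which encodes the protease matriptase (0.04), Gm12854 (0.07) and the adhesion gene Epcam (0.07). Havcr2 was nearest to 5830411N06Rik (0.08), Nap1l3 (0.17) and Oaf (0.20). The last 2 of these lay farther off than any of the 3 nearest profiles of the other 5 genes. Lilr4b was nearest to Smco4 (0.01), Rin2 (0.06) and Ankrd6 (0.08). Lilrb4a was nearest to the paraoxonase gene Pon3 (0.05), to Icos (0.06), the inducible costimulator of T cells, and to March3 (0.08), whose symbol the table gives as a date. Without YFP-negative mouse 1, limma adjusted p was 0.0642 for Gm12854 (0.000268 to 0.0642 over its alternatives), 0.0816 for Rin2 (0.000331 to 0.0816 over its alternatives) and 0.0742 for Ankrd6 (0.000895 to 0.0742 over its alternatives). Ankrd6 lost its call also when YFP-negative mouse 2 was left out, at limma adjusted p = 0.0533, and over 14239 tests, at 0.0721.

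Igkc, the immunoglobulin kappa constant gene and a B cell gene, was counted at 249 and 280 in YFP-positive mice 1 and 2, and at 1503 and 1072 in YFP-negative mice 1 and 2. It was the 1 listed gene of 6 B cell markers. Of 5 natural killer cell markers, a cell type that also expresses Klrg1 and Tigit, Gzma was listed, with 7.28 and 37.1 in YFP-positive mice 1 and 2 against 109 and 253 in YFP-negative mice 1 and 2. All libraries had been sorted on RFP. Both genes were lower in YFP-positive Tregs, as the 6 receptors were, and their part in the receptor results was not tested. Of 3 gamma delta T cell markers 2 were listed and higher, with summed counts of 512 and 263 in YFP-positive mice 1 and 2 against 52.0 and 24.3 in YFP-negative mice 1 and 2. Of 8 myeloid and 3 CD8 T cell markers 0 were listed, and unlisted genes have no value here.

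Other inhibitory receptor genes in the list did not move as one. Of 29 further receptors of this kind 4 were listed, of which 3 were higher and 1 was lower in YFP-positive Tregs, against 30.5% higher and 69.5% lower in the whole list. Cd72, which encodes an ITIM receptor best known from B cells, was counted at 1056 and 1182 in YFP-positive mice 1 and 2 and at 342 and 416 in YFP-negative mice 1 and 2. It rose by 1.56 ± 0.33 on the log2 scale (limma, adjusted p = 5.65e-05). Pecam1, an adhesion receptor gene with ITIMs, had 1443 and 1340 in YFP-positive mice 1 and 2 against 552 and 658 in YFP-negative mice 1 and 2, and rose by 1.21 ± 0.33 (limma, adjusted p = 0.000798). In each of these genes both YFP-positive libraries lay above both YFP-negative libraries, and 100% of the listed genes had groups that did not overlap. Lair1, a collagen receptor gene, had 121 and 119 in YFP-positive mice 1 and 2 against 41.2 and 29.7 in YFP-negative mice 1 and 2, and rose by 1.75 ± 0.51 (limma adjusted p = 0.00129). Without YFP-negative mouse 2 its adjusted p was 0.0671, and over 14239 tests it was 0.0651 (limma, 0.000591 to 0.0671 over the alternatives).

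Cd200r1, the receptor gene for CD200, was the 1 listed receptor of the 29 that fell, with 521 and 815 in YFP-positive mice 1 and 2 against 1199 and 1801 in YFP-negative mice 1 and 2. Its log2 change was -1.17 ± 0.34 (limma adjusted p = 0.00135). Without YFP-positive mouse 1 it was -0.85 with adjusted p = 0.110, and without YFP-negative mouse 2 it was -0.88 with adjusted p = 0.0508, and over 14239 tests adjusted p was 0.0683 (limma, 0.000971 to 0.110 over the alternatives). Pvrig, which was not on the list of 29 and is named after its values were seen, encodes a receptor for CD112 that is related to TIGIT. It had 116 and 177 in YFP-positive mice 1 and 2 and 558 and 529 in YFP-negative mice 1 and 2, and fell by 1.91 ± 0.37 (limma, adjusted p = 1.74e-05). The difference between the Tigit and Pvrig falls was not tested.

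**Figure D4:**
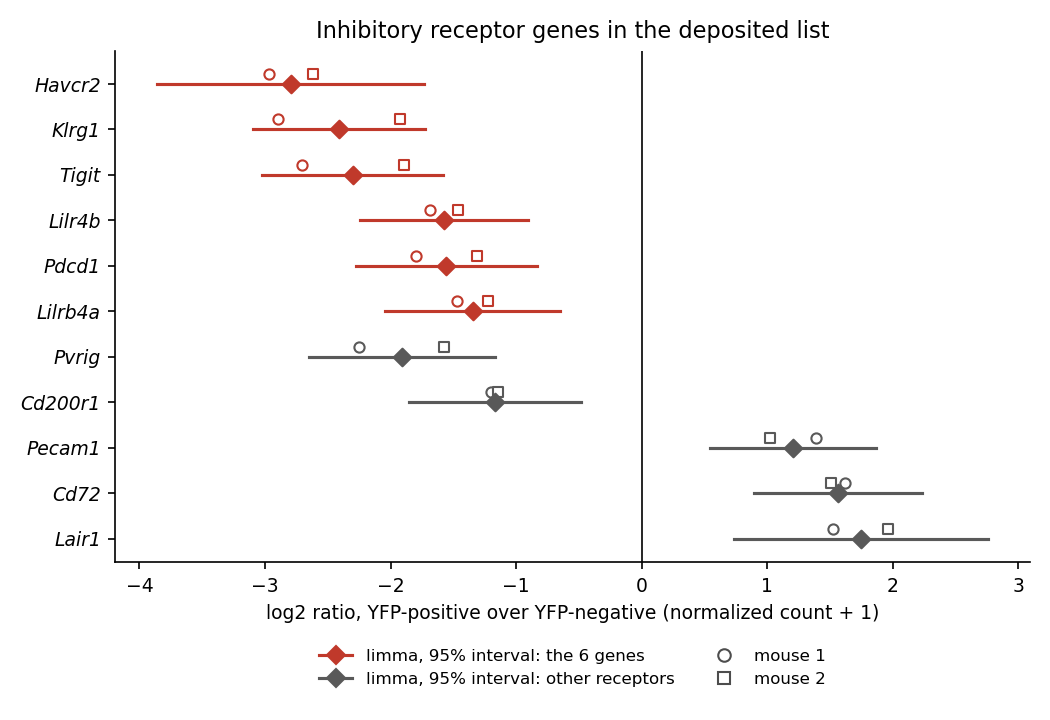
Log2 ratio of YFP-positive over YFP-negative (x axis, normalized count + 1) for the 6 genes (red) and other listed inhibitory receptor genes (grey), with limma estimates as diamonds, 95% intervals as lines, and open circles and squares for mice 1 and 2. The 6 genes, Pvrig (-1.91) and Cd200r1 (-1.17) lie left of 0, whereas Pecam1 (1.21), Cd72 (1.56) and Lair1 (1.75) lie right of it.

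Of 18 genes for ligands and competing receptors and 9 genes for proteins that bind inhibitory tails, 0 were listed. Of 16 regulators known for these receptor genes in T cells 6 were listed, of which 5 fell and 1 rose, near the 69.5% lower and 30.5% higher of the whole list, in which 100% passed. Prdm1 encodes the transcription factor Blimp-1. It had 111 and 198 in YFP-positive mice 1 and 2 against 512 and 556 in YFP-negative mice 1 and 2, and fell by 1.84 ± 0.37. Maf, which encodes c-Maf, had 462 and 643 in YFP-positive mice 1 and 2 against 1401 and 1963 in YFP-negative mice 1 and 2, and fell by 1.60 ± 0.34. The groups did not overlap in either gene, as in 100% of the listed genes. Id2, Tbx21, which encodes T-bet, and Batf, an AP-1 factor of effector Tregs, had log2 changes of -1.83 ± 0.39, -1.60 ± 0.43 and -1.22 ± 0.40. Without YFP-negative mouse 1, Tbx21 had limma adjusted p = 0.0809 (0.000242 to 0.0809 over the alternatives), and adjusted over 14239 tests Batf had 0.177 (0.00239 to 0.177). Bach2, a repressor of effector genes, was the 1 regulator that rose (1.26 ± 0.35), with 758 and 601 in YFP-positive mice 1 and 2 against 249 and 319 in YFP-negative mice 1 and 2.

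Of 10 effector Treg markers, a list that was written with these results known and holds Klrg1 itself, 10 were listed and 10 fell, where 69.5% of the listed genes were lower and 100% passed. Alternatives were computed for Klrg1, Prdm1, Icos and Batf of the 10. Of these, Icos lost its call under the mouse block, at limma adjusted p = 0.0770, and over 14239 tests, at 0.235 (0.00240 to 0.235 over its alternatives), and Batf lost its call over 14239 tests, as given above. Their summed counts were 19055 and 24375 in YFP-positive mice 1 and 2 and 68284 and 59855 in YFP-negative mice 1 and 2. Of 9 resting Treg markers 5 were listed and 5 rose, where 30.5% of the listed genes were higher, with sums of 32452 and 25824 in YFP-positive mice 1 and 2 against 7295 and 6339 in YFP-negative mice 1 and 2. Of 9 Treg markers Gpr83 alone was listed, and it was higher in YFP-positive Tregs, with 5443 and 4259 in mice 1 and 2 against 1752 and 1442 in YFP-negative mice 1 and 2.

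Promoter sequences of RefSeq (GRCm38.p6, the build the submitters name as mm10) were matched by symbol for 4 of the 6 genes. MLL1 has a domain that binds unmethylated CpG, so the CG pairs in the 250 bases before the start are marked in capitals for the genes with the most and the fewest. They are Tigit (chr16:43664185-43664434, minus strand) and Lilr4b (chr10:51480362-51480611, plus strand).
Tigit: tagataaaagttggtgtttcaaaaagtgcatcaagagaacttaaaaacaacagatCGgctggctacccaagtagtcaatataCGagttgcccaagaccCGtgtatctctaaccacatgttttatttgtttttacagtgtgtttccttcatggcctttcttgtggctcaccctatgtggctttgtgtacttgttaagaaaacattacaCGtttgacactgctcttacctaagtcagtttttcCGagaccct
Lilr4b: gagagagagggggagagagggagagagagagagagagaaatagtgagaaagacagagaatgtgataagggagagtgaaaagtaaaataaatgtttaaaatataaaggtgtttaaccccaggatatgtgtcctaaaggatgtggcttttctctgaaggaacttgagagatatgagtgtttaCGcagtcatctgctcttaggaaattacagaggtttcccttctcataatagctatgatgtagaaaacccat
Tigit had 5 CG pairs, Pdcd1 3, Havcr2 2 and Lilr4b 1, where the median over 32851 promoters of this length was 6 and 49.6% had at most 5. The GC content was 40.0%, 60.4%, 44.8% and 39.2% in the same order. These are properties of the reference sequence and say nothing of MLL1 binding, which was not measured here.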

How the data were processed

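The submitters' processing notes name mm10, DESeq2 1.16.1, featureCounts 1.5.0-p3, HISAT2 2.0.5 and StringTie 1.3.3b, and the series text names DEGSeq 1.16.1. Strand setting, annotation release and handling of shared reads are not given in the sources used here. Each deposited signal value is a read count scaled by the authors with 1 size factor for its library. The authors' deposited log2 fold changes and p-values served only to describe how genes were listed and to infer the number of tests.

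Limma 3.58.1 (R 4.3.3) was run on log2(value + 1) of all 282 genes. It used a variance trend, no block, and Benjamini-Hochberg adjustment over the 282. The same fit was also run on simulated data that held some unchanged genes and no mouse effect. Every listed gene had been selected as changed, so that run does not calibrate the p-values given here. With 2 libraries a group an exact permutation test cannot go below p = 0.333. All values (100%) were multiples of a per-library step to within 0.01 reads, but only 12 to 39 low values per library check the step, so no count test was run. That the mouse number pairs libraries was taken from the titles; deviations of same-numbered libraries correlated across the 282 genes (r = 0.395).

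The members and lists were chosen with earlier results of these data known. Named genes are the 6, listed members of the lists, the 3 nearest profiles of each, and listed genes within 200 kilobases. Alternatives were a mouse block, pseudocounts of 0.1 and 8, a mean of at least 50, no variance trend, adjustment over 14239 tests, leaving out each library, and each mouse alone.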

Additional observations from a re-analysis of the deposited data

How the results depend on the processing

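The 6 receptor genes kept their direction under each of the 10 refits run. No refit could have reversed it, since both YFP-positive libraries lie below both YFP-negative libraries in each of the 6. All 282 listed genes have separate groups too, so a kept direction was not particular to the 6. The 6 passed limma's adjusted p of 0.05 in each refit with 2 libraries a group. So did most listed genes, 236 of 282 at the fewest, so passing was not particular to the 6. Across the 10 refits, log2 changes ran from -2.59 to -2.01 for Tigit, -2.70 to -2.12 for Klrg1, -1.70 to -1.41 for Pdcd1, -2.99 to -2.44 for Havcr2, -1.78 to -1.37 for Lilr4b and -1.51 to -1.18 for Lilrb4a. With the mouse as a replicate block, limma adjusted p was 0.00214 (Havcr2) to 0.00560 (Pdcd1), 279 of 282 genes passed, and no call on the 6 changed. Among other named genes the block ended the call of Icos (limma adjusted p = 0.0770). Adjusted over 14239 tests, 236 genes passed, Icos (0.235), Batf, Lair1, Cd200r1 and Ankrd6 did not, and Lilrb4a had the highest p of the 6 (0.0227). Leaving out 1 library, the lone one of its group being assumed to vary like the other group, left 257 to 269. In a single mouse, a value with no test, Tigit and Klrg1 moved by more than 1 SE, to -2.70 and -2.89 in mouse 1 and to -1.90 and -1.93 in mouse 2. With principal transcript lengths, Lilr4b had 316 counts per kilobase in YFP-positive against 949 in YFP-negative Tregs, and Lilrb4a 180 in YFP-positive against 457 in YFP-negative Tregs, because the length is shorter. A pseudocount of 8 kept 13 of 18 nearest genes. The edgeR tests on recovered reads were not run, since too few low values check the reads. Low counts limit Havcr2.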
